A study of Homo sapiens with 12 samples.

Results

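The genes described here are those of cholesterol and fatty acid synthesis, with the regulators that govern them and the genes of sterol uptake and efflux. The list held 35 genes and 32 of them were measured, out of 19775 genes on the arrays. Each was read from 1 probe set, the one with the highest mean signal among those assigned to that gene symbol alone. CYP51A1 and FADS1 had only probe sets that carry several symbols, and FDFT1 was not analysed here. RNA of cells labelled PC3, a prostate cancer line, had been hybridised to 12 arrays, 3 per group. The 4 groups were cells given both drugs, Wee1 inhibitor II alone at 2.5 µM, 17-AAG alone at 40 nM, and control cells, which were labelled untreated although the treatment protocol gives them vehicle. Wee1 inhibitor II blocks the kinase that holds back entry into mitosis, and 17-AAG blocks the chaperone Hsp90. In the schedule of the protocol, 17-AAG followed Wee1 inhibitor II after 24 h and cells were collected 48 h after 17-AAG. The title puts the study's question as whether Wee1 inhibition makes such cells more sensitive to Hsp90 inhibition.

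Cholesterol is built from acetyl-CoA, which the mevalonate pathway turns into isoprenoid units, and the sterol steps then fold and trim these into cholesterol. SREBP transcription factors switch on most of these genes, and their precursors wait in the endoplasmic reticulum bound to the escort protein SCAP. When membrane sterol is plentiful, INSIG proteins hold SCAP back. When it is scarce, SCAP carries the precursors to the Golgi, where they are cut into active factors. SREBF1 codes for the factors best known for fatty acid synthesis and SREBF2 for the one best known for cholesterol synthesis, and INSIG1 is itself a target.

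Control replicate 2 had been set aside by the submitters because its signal was weak, so 2 control arrays and 3 arrays of each other group were compared. The removed array stood apart: its log2 signals correlated with those of the 11 others at 0.825 to 0.833, against 0.913 to 0.936 among the 11. On the 11 arrays the data went against the PC3 label. The summed signal of 8 pigment cell genes was 50063 to 51294 with both drugs, 26615 to 29290 with Wee1 inhibitor II, 42792 to 48444 with 17-AAG and 34296 to 36213 in control, against 393 on the removed array. CTNNA1 and STAT3, both deleted in PC3, summed to at least 3468 on each of the 11 arrays and to 9.11 on the removed one. Of 7 prostate and epithelial genes, HOXB13 read at most 11.3 on the 11 arrays and 2087 on the removed one. EPCAM, KRT8 and KRT18 were also higher on the removed array than on any of the 11. ESRP1 went the other way, at 48.5 on the removed array and at least 142 on the 11. KRT19 and CDH1 on the removed array lay within the range of the 11. Hsp90 inhibitors are known to induce heat shock genes. Here, of 11 drug target and heat shock genes, 4 fell with 17-AAG against control (36.4%, against 6.8% of all genes). None of the 11 rose or was higher at an unadjusted p under 0.05, too few genes to set apart from the 9.93% of all genes that rose. DNAJB1, a co-chaperone gene that heat shock factor induces, averaged 510 with 17-AAG, against 1192 in control (log2 difference -1.22, adjusted p = 0.000375). Group names below are therefore those of the arrays as labelled, and every direction rests on those labels.

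With 17-AAG alone, each sterol or lipid gene that passed the test was higher than in control. Of the 32 genes 13 rose and 0 fell against control (40.6% rose, against 9.93% of all genes tested, of which 6.8% fell), led by INSIG1, SREBF1, ACSS2 and LSS. The median difference of the 32 was 0.51 (log2), against 0.01 for all genes. INSIG1 was 4.38-fold higher, SREBF1 3.28-fold, ACSS2 3.25-fold and LSS 2.21-fold (all n = 3 against 2). Of the 19 genes that were not called, 7 were higher at an unadjusted p under 0.05 and none was lower. In a fit of only these 5 arrays 0 of the 32 passed (17 higher and 0 lower at an unadjusted p under 0.05), as did 0 of all genes (4816 at an unadjusted p under 0.05). The count was 6 with the removed control array included, where 480 of all genes were called, against 3309. It was 8 without control replicate 1, where 1728 of all genes were called.

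With Wee1 inhibitor II alone, more of these genes fell than rose. Against control 11 of 32 fell (34.4%, against 10.3% of all genes) and 2 rose (6.25%, against 14.5% of all genes). The risers were SREBF1 at 0.78 ± 0.12 (log2 difference ± SE, adjusted p = 0.00255) and ACSS2, an acetyl-CoA synthetase gene, at 0.71 ± 0.16 (adjusted p = 0.015). The genes that fell were 2 of the mevalonate pathway, 5 of the sterol steps, 3 of the regulators and uptake genes, and ELOVL6. The median was -0.16, against 0.12 for all genes. The count of 13 (24.9% of all genes were called) was 8 with the removed control array included, 8 with each gene's probe sets averaged and 5 in a fit of these arrays alone. Calls over all genes were then 1268, 3215 and 2461, against 4922. Centring each array on its median made the calls of the 32 genes 1 higher and 15 lower. It changed the split over all genes to 1587 higher and 3064 lower, against 2877 and 2045.

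Most sterol and lipid genes had lower signals with both drugs than with 17-AAG alone. Against 17-AAG alone 21 of 32 genes fell (65.6%, against 8.43% of all genes) and 0 rose (10.9% of all genes did), and 0 were higher at an unadjusted p under 0.05. The median was -0.56, against 0.10 for all genes. Wee1 inhibitor II alone against 17-AAG alone gave a similar count, 23 lower (71.9%, against 8.52% of all genes) and 0 higher, also 0 at an unadjusted p under 0.05 (10.2% of all genes rose). Those comparisons share the 17-AAG arrays. With the removed control array included the counts were 12 and 15. Calls over all genes were then 542 and 479, against 3816 and 3696. After centring, 26 genes were lower with both drugs against 17-AAG, and calls over all genes were 917 higher and 2481 lower, against 2148 and 1668. For Wee1 inhibitor II against 17-AAG they were 907 and 2603, against 2011 and 1685.

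Against control, cells given both drugs had 14 of 32 genes called, against 28% of all genes. There were 5 of 32 genes higher (15.6%, against 16.7% of all genes) and 9 lower (28.1%, against 11.3% of all genes). The share of risers was near that of all genes. Higher were TM7SF2, SREBF1, SCD, ACSS2 and LPIN1. Lower were ACAT2, PMVK, IDI1, SQLE, HSD17B7, EBP, INSIG2, STARD4 and ELOVL6. Against Wee1 inhibitor II alone 5 rose (15.6%, against 7.27% of all genes) and 1, ACAT2, fell (3.13%, against 6.84%), with a median of 0.02, against 0.00 for all genes. After centring, calls over all genes against control were 1999 higher and 3126 lower, against 3306 and 2233. The count against Wee1 inhibitor II rested on single arrays. It was 2 without both drugs replicate 1, both drugs replicate 3, Wee1 inhibitor II replicate 2 or 3, or 17-AAG replicate 3. Calls over all genes were then, in that order, 1996, 2007, 2101, 2083 and 2528. SCD was the call left with the removed control array included, where 389 of all genes were called, against 2791.

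**Figure D1:**
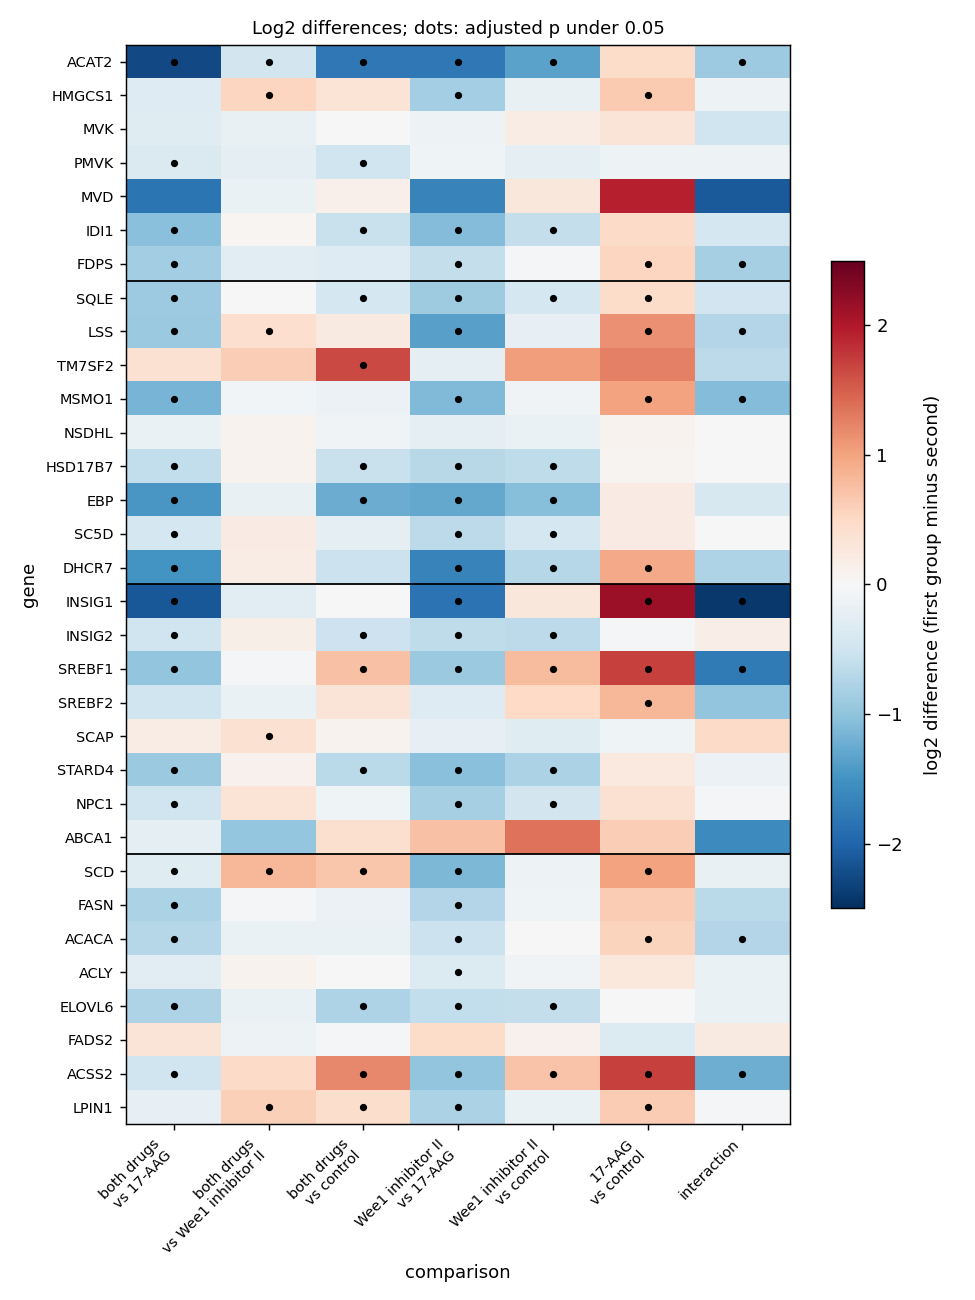
Log2 difference of each of the 32 genes (down the page, by role: mevalonate pathway, sterol steps, regulators and uptake, fatty acid synthesis) in 7 comparisons, first group minus second, with red for higher and blue for lower; a dot marks an adjusted p under 0.05. The column of 17-AAG against control has 13 dots, all on red, and that of both drugs against 17-AAG has 21, all on blue.

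Of the 5 regulators, INSIG1 differed most between groups. Signals here are those of single arrays in replicate order, or geometric means of 3 arrays (2 for control), and differences are log2 with the standard error of the fit. The INSIG1 signal was 301, 319 and 308 with both drugs, 412, 335 and 379 with Wee1 inhibitor II, 1248, 1476 and 1310 with 17-AAG, and 379 and 247 on the control arrays. The 3 arrays with 17-AAG alone lay far above the other 8, among which control spanned the arrays with both drugs. The log2 difference was 2.13 ± 0.18 for 17-AAG against control (adjusted p = 0.000503) and -2.12 ± 0.16 for both drugs against 17-AAG (adjusted p = 0.000117). Between both drugs and control it was 0.01 ± 0.18 (adjusted p = 0.973), with a 95% interval of -0.40 to 0.42. The gene has 2 other probe sets, which gave 2.24 and 2.14 for 17-AAG against control. The removed control array read 911.

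SREBF1, the gene of the SREBP-1 factors, was higher in each drug group than in control. It read 272, 275 and 235 with both drugs, 268, 261 and 279 with Wee1 inhibitor II, 580, 450 and 518 with 17-AAG, and 153 and 160 in control. All 9 drug arrays lay above both control arrays, and the 17-AAG arrays lay above the rest. The differences from control were 0.73 ± 0.12 with both drugs (adjusted p = 0.0027), 0.78 ± 0.12 with Wee1 inhibitor II and 1.71 ± 0.12 with 17-AAG (adjusted p = 0.000308). Averaging in a second, dim probe set (mean signal 16.6) turned the first of these to -0.17.

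SREBF2, the gene of SREBP-2, varied more among replicates. It read 138, 154 and 111 with both drugs, 205, 115 and 144 with Wee1 inhibitor II, 193, 199 and 176 with 17-AAG, and 109 and 105 in control. The arrays with 17-AAG lay above both control arrays and within the range of those with Wee1 inhibitor II. Its call for 17-AAG against control (0.82 ± 0.23, adjusted p = 0.0468) was lost in 19 of 25 alternative fits.

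SCAP, the escort protein gene, and INSIG2, which codes for the other retention protein, followed other patterns. SCAP read 349, 314 and 333 with both drugs, 266, 236 and 259 with Wee1 inhibitor II, 333, 261 and 282 with 17-AAG, and 305 and 317 in control. It passed in 1 comparison, both drugs against Wee1 inhibitor II (0.39 ± 0.11, adjusted p = 0.0451), a call lost in 16 of 25 alternative fits. INSIG2 read 114, 123 and 107 with both drugs, 103, 104 and 102 with Wee1 inhibitor II, 153, 169 and 162 with 17-AAG, and 157 and 169 in control. It fell wherever Wee1 inhibitor II was given. Its differences from control were -0.51 ± 0.09 with both drugs (adjusted p = 0.00317) and -0.66 ± 0.09 with the inhibitor alone (adjusted p = 0.00123). For 17-AAG against control the difference was -0.02, with an interval of -0.22 to 0.18.

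The promoters printed here are those of INSIG1 and LSS, whose 17-AAG arrays stood apart, and that of SREBF2, the 1 gene of the list whose window held the sterol regulatory element searched for. They are the 250 bases before the annotated start, from RefSeq on GRCh38.p14: chr7:155297628-155297877 (plus strand) for INSIG1, chr21:46228775-46229024 (minus strand) for LSS and chr22:41832855-41833104 (plus strand) for SREBF2. Capitals mark every match that lies whole within these bases, on either strand, to the sterol element TCACNCCAC, the CCAAT box CCAAT, the Sp1 box GGGCGG and the E-box CACGTG. In INSIG1 a pair of Sp1 boxes share 1 base. In SREBF2 a further Sp1 box, on the minus strand, begins on the last capital and runs past the printed end, so it is not marked.
INSIG1: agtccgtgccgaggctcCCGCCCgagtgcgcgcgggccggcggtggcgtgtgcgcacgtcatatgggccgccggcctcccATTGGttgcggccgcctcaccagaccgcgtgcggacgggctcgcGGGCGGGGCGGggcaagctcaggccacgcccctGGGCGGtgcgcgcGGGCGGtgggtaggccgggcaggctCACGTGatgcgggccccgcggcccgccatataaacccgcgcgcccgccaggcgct
LSS: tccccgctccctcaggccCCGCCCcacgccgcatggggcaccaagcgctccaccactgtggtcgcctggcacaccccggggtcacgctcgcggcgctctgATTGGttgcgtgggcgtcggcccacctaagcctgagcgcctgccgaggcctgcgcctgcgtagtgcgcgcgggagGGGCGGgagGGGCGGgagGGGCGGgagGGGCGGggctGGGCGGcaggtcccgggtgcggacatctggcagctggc
SREBF2: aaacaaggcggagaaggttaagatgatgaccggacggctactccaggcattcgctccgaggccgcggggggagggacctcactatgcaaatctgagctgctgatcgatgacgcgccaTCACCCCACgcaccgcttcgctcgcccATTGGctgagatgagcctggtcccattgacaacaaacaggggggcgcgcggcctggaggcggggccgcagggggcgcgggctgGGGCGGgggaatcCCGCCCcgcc
Promoters were held for 31 of the 35 listed genes. Of these 31 windows (250 bases before and 50 after the start) 1 held the sterol element, against 1.15% of 27305 promoters. Only that string was searched for, so an element with other letters or outside the window would be missed. The CCAAT box was in 18 of 31, against 35.7%, the Sp1 box in 29 of 31, against 44.6%, and the E-box in 5 of 31, against 7.44%. A match is a description of letters and not a site.

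**Figure D2:**
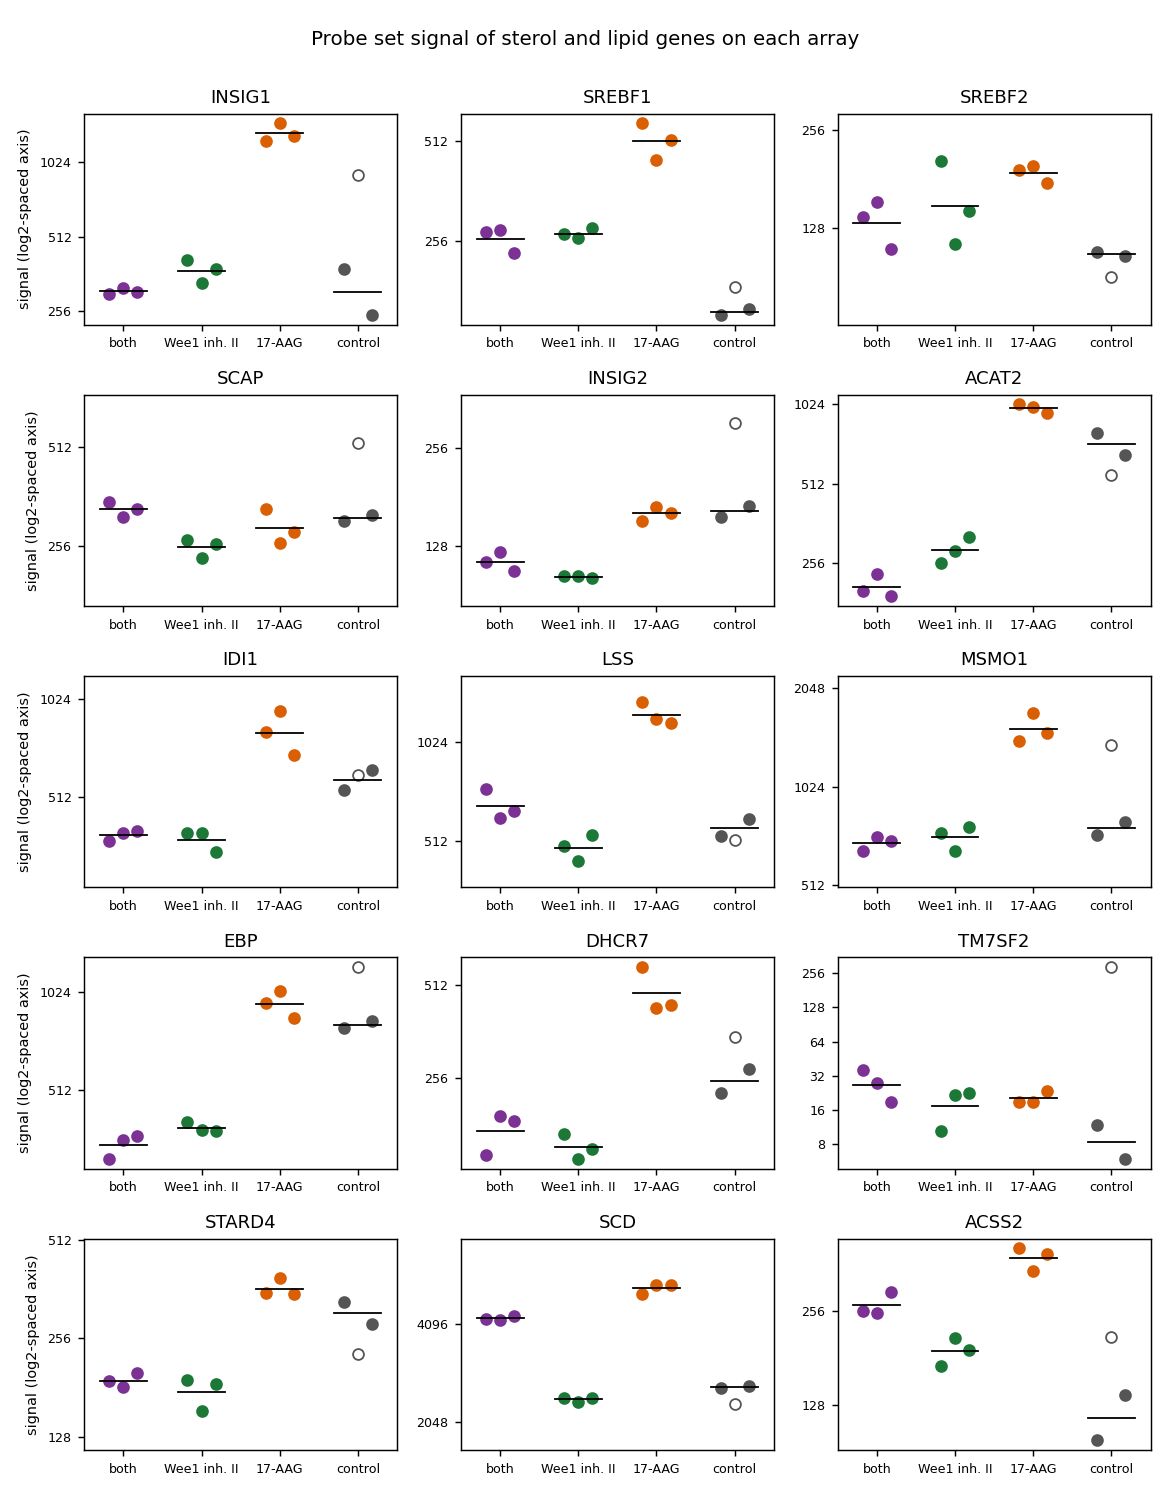
Signal of 15 genes on each array (log2-spaced axis, 1 point per array, lines at the geometric mean of the arrays compared); the open circle is control replicate 2, which was left out. All 3 arrays with 17-AAG lie above every other array in INSIG1, SREBF1, ACAT2, IDI1, LSS, MSMO1, DHCR7, STARD4, SCD and ACSS2. All 6 arrays with Wee1 inhibitor II, alone or with 17-AAG, lie below all others in INSIG2, ACAT2, IDI1, EBP, DHCR7 and STARD4. How many of all genes separate in these ways was not counted, so the lists only describe the points drawn.

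In the mevalonate pathway, ACAT2 fell most. This gene codes for the thiolase that joins the first acetyl-CoA units. It read 201, 234 and 192 with both drugs, 257, 286 and 321 with Wee1 inhibitor II, 1022, 1000 and 949 with 17-AAG, and 795 and 656 in control. The groups did not overlap in any pair. Against control it fell by 1.79 ± 0.14 (log2) with both drugs (adjusted p = 6.32e-05) and by 1.33 ± 0.14 with Wee1 inhibitor II (adjusted p = 0.000377). With 17-AAG alone the difference was 0.46 ± 0.14 and did not pass (adjusted p = 0.0563).

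IDI1, the isomerase gene of the isoprenoid unit, had a similar shape. It read 377, 398 and 403 with both drugs, 399, 397 and 348 with Wee1 inhibitor II, 809, 940 and 688 with 17-AAG, and 539 and 619 in control. All 6 arrays with Wee1 inhibitor II lay below the 5 others. The IDI1 calls, against control and against 17-AAG, were all lost with its probe sets averaged. Those against control were also lost without control replicate 3. FDPS, which makes farnesyl diphosphate, averaged 1045 with both drugs, 1274 with Wee1 inhibitor II, 1916 with 17-AAG and 1311 in control. HMGCS1, the gene of cytosolic HMG-CoA synthase, averaged 293 with both drugs, 202 with Wee1 inhibitor II, 365 with 17-AAG and 231 in control. Each rose with 17-AAG against control, FDPS by 0.55 ± 0.11 (adjusted p = 0.014) and HMGCS1 by 0.66 ± 0.15 (adjusted p = 0.0221), calls lost without control replicate 1 or control replicate 3. PMVK, the gene of phosphomevalonate kinase, averaged 405 with both drugs and 570 in control (-0.49 ± 0.09, adjusted p = 0.00431). MVK and MVD passed in no comparison. MVD averaged 10.1 at most, below the medians of the 11 arrays (17.7 to 23.1), so its differences are rough.

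In the sterol steps, LSS and MSMO1 had the largest called rises with 17-AAG alone. LSS codes for lanosterol synthase, which closes the sterol rings. It read 735, 599 and 630 with both drugs, 492, 443 and 532 with Wee1 inhibitor II, 1356, 1208 and 1171 with 17-AAG, and 529 and 595 in control. MSMO1, a methyl sterol oxidase gene, read 651, 720 and 698 with both drugs, 741, 652 and 773 with Wee1 inhibitor II, 1412, 1722 and 1495 with 17-AAG, and 726 and 800 in control. In both genes the 17-AAG arrays lay above the 8 others, as they also did in SQLE, EBP, SC5D and DHCR7. How many of all genes did the same was not counted. EBP (adjusted p = 0.263) and SC5D (adjusted p = 0.151) were not called for 17-AAG against control. The differences of 17-AAG from control were 1.15 ± 0.13 for LSS (adjusted p = 0.00136) and 1.01 ± 0.12 for MSMO1 (adjusted p = 0.0016). MSMO1 read 1369 on the removed control array, near the 17-AAG level.

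EBP, a sterol isomerase gene, and DHCR7, the gene of the last reduction to cholesterol, differed in where control lay. EBP read 313, 359 and 368 with both drugs, 407, 384 and 381 with Wee1 inhibitor II, 950, 1034 and 853 with 17-AAG, and 791 and 836 in control. Its arrays formed a low set of 6 with Wee1 inhibitor II and a high set of 5 without it. EBP fell by 1.23 ± 0.11 with both drugs (adjusted p = 0.000129) and by 1.06 ± 0.11 with Wee1 inhibitor II (adjusted p = 0.000418) against control, calls kept in all 25 alternative fits. DHCR7 read 143, 192 and 185 with both drugs, 167, 139 and 150 with Wee1 inhibitor II, 586, 432 and 442 with 17-AAG, and 228 and 273 in control. Control lay between the 17-AAG arrays and the rest. DHCR7 rose by 0.95 ± 0.19 with 17-AAG (adjusted p = 0.0111) and fell by 0.72 ± 0.19 with Wee1 inhibitor II (adjusted p = 0.0235). The rise was lost without control replicate 1, and the fall was lost in 8 of 25 alternative fits.

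SQLE, the squalene epoxidase gene, was called in both directions against control. It averaged 483 with both drugs, 484 with Wee1 inhibitor II, 901 with 17-AAG and 652 in control. SQLE fell by 0.43 ± 0.10 with both drugs (adjusted p = 0.0117) and with Wee1 inhibitor II (adjusted p = 0.0143), and rose by 0.47 ± 0.10 with 17-AAG (adjusted p = 0.0151). All 3 calls were lost without control replicate 3, and the rise also without control replicate 1. HSD17B7, a sterol ketone reductase gene, averaged 380 with both drugs, 358 with Wee1 inhibitor II, 583 with 17-AAG and 558 in control. SC5D, a sterol desaturase gene, averaged 406 with both drugs, 350 with Wee1 inhibitor II, 551 with 17-AAG and 476 in control. Both fell with Wee1 inhibitor II, HSD17B7 by 0.64 ± 0.09 (adjusted p = 0.00126) and SC5D by 0.44 ± 0.09 (adjusted p = 0.00681). With its probe sets averaged SC5D stood at 0.12. NSDHL passed in no comparison. TM7SF2, a sterol reductase gene, read 35.9, 27.7 and 18.8 with both drugs, 10.4, 21.9 and 22.7 with Wee1 inhibitor II, 18.7, 18.9 and 23.5 with 17-AAG, and 11.9 and 5.96 in control. These signals lie around the array medians, so its call for both drugs against control (1.66 ± 0.44, adjusted p = 0.0224) is rough, and it was -0.04 with the removed control array included.

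Among the uptake and transport genes, STARD4, which carries sterol within the cell, read 189, 182 and 200 with both drugs, 190, 154 and 186 with Wee1 inhibitor II, 351, 391 and 349 with 17-AAG, and 330 and 283 in control. Again the 6 arrays with Wee1 inhibitor II lay below all 5 others. NPC1, which exports cholesterol from lysosomes, averaged 658 with both drugs, 519 with Wee1 inhibitor II, 927 with 17-AAG and 713 in control, and it fell by 0.46 ± 0.13 with Wee1 inhibitor II against control (adjusted p = 0.03), a call lost in 9 of 25 alternative fits. ABCA1, the efflux pump gene that oxysterols induce, averaged 12.4 at most and passed in no comparison.

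In fatty acid synthesis, SCD rose with 17-AAG both with and without Wee1 inhibitor II, on the probe set used. It codes for the desaturase that makes oleate. It read 4221, 4212 and 4325 with both drugs, 2424, 2359 and 2428 with Wee1 inhibitor II, 5028, 5376 and 5373 with 17-AAG, and 2609 and 2634 in control. The 6 arrays with 17-AAG, alone or combined, lay above the 5 without it. SCD rose by 0.82 ± 0.06 with both drugs against Wee1 inhibitor II (adjusted p = 0.000113) and by 1.00 ± 0.07 with 17-AAG against control (adjusted p = 0.000286). Its 3 dimmer probe sets put both drugs against Wee1 inhibitor II at 0.69, 0.23 and 0.18. They put both drugs against control at 0.21, -0.29 and -0.35, where the one used gave 0.70 ± 0.07 (adjusted p = 0.000232). LPIN1, a phosphatidate phosphatase gene, averaged 978 with both drugs, 648 with Wee1 inhibitor II, 1125 with 17-AAG and 726 in control. It rose by 0.59 ± 0.09 with both drugs against Wee1 inhibitor II (adjusted p = 0.00303).

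ACSS2, which makes acetyl-CoA from acetate, read 256, 252 and 295 with both drugs, 171, 210 and 192 with Wee1 inhibitor II, 407, 344 and 389 with 17-AAG, and 98.7 and 138 in control. The 4 groups did not overlap. It was higher than control by 1.20 ± 0.16 with both drugs (adjusted p = 0.001) and by 1.70 ± 0.16 with 17-AAG (adjusted p = 0.000771). ACACA, the gene of the rate-limiting carboxylase, averaged 317 with both drugs, 357 with Wee1 inhibitor II, 519 with 17-AAG and 353 in control. FASN, the gene of fatty acid synthase, averaged 110 with both drugs, 114 with Wee1 inhibitor II, 190 with 17-AAG and 122 in control. With both drugs against 17-AAG alone, ACACA fell by 0.71 ± 0.07 (adjusted p = 0.000436) and FASN fell by 0.78 ± 0.19 (adjusted p = 0.0241). The FASN call was lost in 10 of 25 alternative fits, among them those without any single 17-AAG array or without both drugs replicate 1. ACLY, which makes cytosolic acetyl-CoA from citrate, passed for Wee1 inhibitor II against 17-AAG (-0.34 ± 0.09, adjusted p = 0.0289), a call lost in 11 of 25 alternative fits. ELOVL6, an elongase gene, averaged 279 with both drugs, 312 with Wee1 inhibitor II, 476 with 17-AAG and 474 in control. It fell by 0.77 ± 0.14 with both drugs against control (adjusted p = 0.0039). FADS2 averaged 25.4 to 34.8 and passed in no comparison.

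The interaction of the drugs asks whether 17-AAG changed a gene differently with Wee1 inhibitor II than without it. Of the 32 genes 8 had a negative interaction (25.0%, against 6.97% of all genes) and 0 a positive one (4.82% of all genes did; 1 at an unadjusted p under 0.05). The 8 were ACAT2 and FDPS, LSS and MSMO1, INSIG1 and SREBF1, and ACACA and ACSS2, a pair from each role. INSIG1 stood at -2.41 ± 0.24 (log2, adjusted p = 0.00135): 17-AAG made a difference of -0.27 with Wee1 inhibitor II and 2.13 without it. SREBF1 stood at -1.76 ± 0.17 (adjusted p = 0.00118), with -0.05 where Wee1 inhibitor II was present and 1.71 where it was not. The SREBF1 call was lost with its dim second probe set averaged in. MSMO1 stood at -1.08 ± 0.16 (adjusted p = 0.00545) and ACSS2 at -1.21 ± 0.22 (adjusted p = 0.0117). SCD stood at -0.18 (adjusted p = 0.3), and its 3 dimmer probe sets at -0.57, -0.89 and -0.98, of which the second passed among all probe sets (adjusted p = 0.0432). The count of 8 was 1, SREBF1, with the removed control array included, where 119 of all genes were called, against 2331. The call of LSS (-0.73 ± 0.17, adjusted p = 0.0318) was lost in 13 of 24 alternative fits.

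**Figure D3:**
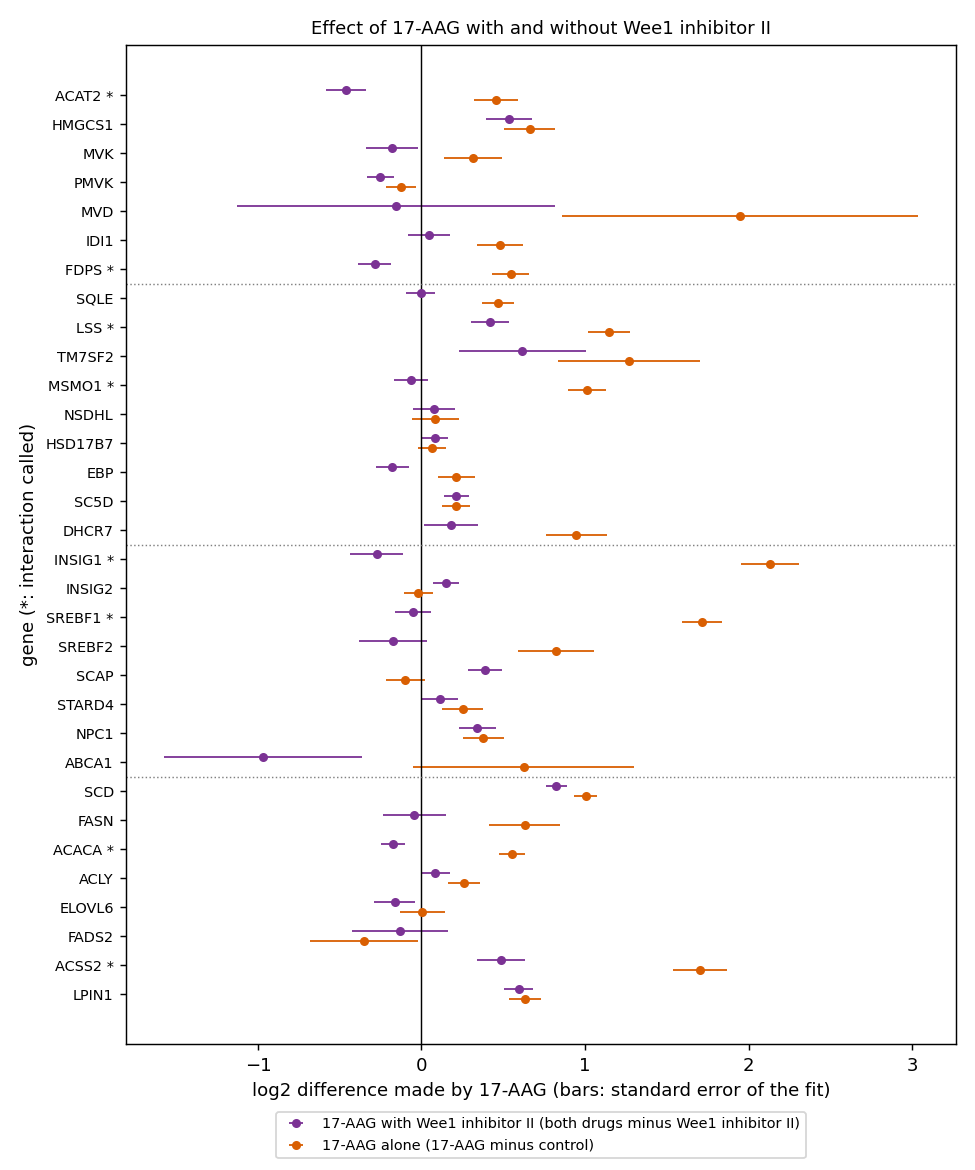
Log2 difference made by 17-AAG in each of the 32 genes with Wee1 inhibitor II present (purple, both drugs minus Wee1 inhibitor II) and without it (orange, 17-AAG minus control); bars are standard errors and a star marks a called interaction. INSIG1 and SREBF1 lie near 0 with the inhibitor and at 2.13 and 1.71 without it, while SCD lies at 0.82 with the inhibitor and 1.00 without it.

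Pigment cell genes and drug response genes moved between the same groups. Of 8 pigment cell genes 7 rose (87.5%, against 16.7% of all genes) and 0 fell with both drugs against control. With Wee1 inhibitor II 1 rose (12.5%, against 14.5%) and 5 fell (62.5%, against 10.3%), and with 17-AAG 6 rose (75.0%, against 9.93%) and 0 fell. Of the 11 drug target and heat shock genes 1 rose (9.09%, against 16.7%) and 4 fell (36.4%, against 11.3%) with both drugs against control. With Wee1 inhibitor II 5 of the 11 fell (45.5%, against 10.3%) and 0 rose (1 was higher at an unadjusted p under 0.05). These are too few genes to set the 0 apart from the 14.5% of all genes that rose. The 6 fibroblast markers summed to 781 to 840 with both drugs, 430 to 477 with Wee1 inhibitor II, 1782 to 1925 with 17-AAG and 1084 to 1224 in control. One of them, LUM, made up most of that sum and was the 1 marker of the 6 called with 17-AAG against control, while COL3A1 read at most 7.95 and PDGFRB at most 15.1 on the 11 arrays. The 4 blood cell markers summed to at most 44.7 on any of the 11 arrays, and 0 of them were called in any comparison (2 values at an unadjusted p under 0.05). In bulk RNA, fewer cells of a type and less RNA per cell cannot be told apart. The part of these changes in the sterol gene results was not tested.

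Other genes of lipid metabolism were counted by list beside the shares over all genes, and no test compared the lists with each other or with the 32 genes. Of all genes tested, 16.7% rose and 11.3% fell with both drugs against control, 14.5% and 10.3% with Wee1 inhibitor II, and 9.93% and 6.8% with 17-AAG. Of 16 further enzymes of sterols and acyl chains 7 rose (43.75%) and 0 fell with 17-AAG against control. With Wee1 inhibitor II against control 3 of the 16 rose (18.75%) and 5 fell (31.25%). With both drugs against control 4 rose and 4 fell (25.0% each). With both drugs against 17-AAG 1 of the 16 rose (6.25%, against 10.9% of all genes) and 5 fell (31.25%, against 8.43% of all genes). LBR, whose protein has a sterol reductase domain, averaged 746 with both drugs and 1342 with 17-AAG (-0.85 ± 0.08, adjusted p = 0.000261). SCD5, a second desaturase gene, averaged 571 with both drugs, 343 with Wee1 inhibitor II, 361 with 17-AAG and 163 in control. With both drugs it stood 1.81 ± 0.13 above control (log2, adjusted p = 5.61e-05). FADS3 rose with Wee1 inhibitor II against control (1.34 ± 0.12, adjusted p = 0.000233). Of 20 genes that process or degrade SREBP and its partners 2 rose (10.0%, against 14.5% of all genes) and 7 fell (35.0%, against 10.3%) with Wee1 inhibitor II against control. With 17-AAG 2 of the 20 rose (10.0%, near the 9.93% of all genes) and 5 fell (25.0%, against 6.8%). With both drugs against control 5 of the 20 rose (25.0%) and 6 fell (30.0%). TMEM97, a sterol-responsive membrane protein gene, averaged 708 with both drugs, 892 with Wee1 inhibitor II, 1139 with 17-AAG and 1456 in control. Of the 20 genes that process or degrade SREBP, 6 had a positive interaction (30.0%, against 4.82% of all genes). A negative one was called in 0 (1 at an unadjusted p under 0.05), against 6.97% of all genes. ERLIN2, which codes for a protein of the endoplasmic reticulum membrane, was 1 of the 6 (0.74 ± 0.11, adjusted p = 0.0054).

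Genes of the isoprenoid and dolichol branch, which draws on the same precursors, numbered 14. Of these, 0 rose with 17-AAG against control (0 higher at an unadjusted p under 0.05), too few genes to set apart from the 9.93% of all genes that rose, and 3 fell (21.4%, against 6.8%). With Wee1 inhibitor II 1 of the 14 rose and 6 fell (7.14% and 42.9%, against 14.5% and 10.3%). With both drugs against control 1 rose and 5 fell (7.14% and 35.7%, against 16.7% and 11.3%). PDSS1, which starts the side chain of ubiquinone, averaged 219 with both drugs, 211 with Wee1 inhibitor II, 318 with 17-AAG and 551 in control. Of 23 genes of sterol transport, storage and LXR response 9 rose and 2 fell with both drugs against control (39.1% and 8.70%, against 16.7% and 11.3% of all genes). With Wee1 inhibitor II 7 rose and 3 fell (30.4% and 13.0%, against 14.5% and 10.3%), and with 17-AAG 5 rose and 1 fell (21.7% and 4.35%, against 9.93% and 6.8%). SCARB1, the receptor for high density lipoprotein, averaged 1281 with both drugs, 1163 with Wee1 inhibitor II, 3025 with 17-AAG and 2222 in control. VLDLR, a lipoprotein receptor gene, was higher than control by 1.02 ± 0.14 with both drugs (adjusted p = 0.0009), 1.15 ± 0.14 with Wee1 inhibitor II (adjusted p = 0.000716) and 0.94 ± 0.14 with 17-AAG (adjusted p = 0.00355).

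Of 19 genes of glycerolipid assembly 2 rose and 4 fell with both drugs against control (10.5% and 21.1%, against 16.7% and 11.3% of all genes). With Wee1 inhibitor II 3 rose and 5 fell (15.8% and 26.3%, against 14.5% and 10.3%), and with 17-AAG 1 rose and 4 fell (5.26% and 21.1%, against 9.93% and 6.8%). The shares of risers were near or below those of all genes. AGPAT5, an acyltransferase gene, averaged 606 with both drugs, 737 with Wee1 inhibitor II, 849 with 17-AAG and 1406 in control. Of 19 genes of fatty acid oxidation 8 rose (42.1%, against 16.7% of all genes) and 0 fell with both drugs against control. With Wee1 inhibitor II 4 rose and 2 fell (21.1% and 10.5%, against 14.5% and 10.3%), and with 17-AAG 8 rose and 1 fell (42.1% and 5.26%, against 9.93% and 6.8%). PDK4, a kinase gene that fasting induces, averaged 60.7 with both drugs, 38.3 with Wee1 inhibitor II, 203 with 17-AAG and 34.1 in control. Its interaction was negative (-1.91 ± 0.20, adjusted p = 0.00156). HADHB, of the mitochondrial trifunctional protein, averaged 3753 with both drugs, 2493 with Wee1 inhibitor II, 2882 with 17-AAG and 2129 in control.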

How the data were processed

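The authors deposited linear intensity values per probe set. Their 2% trimmed mean was 150 on each array. Partek 6.5 and RMA appear in the submitters' processing notes, in no stated order. Since the values are linear and array medians differ, log2 was taken here with no further scaling. Per the labels' protocols, 100 ng of RNA was labelled for Affymetrix 3-prime arrays. Probe sets numbered 54675, of which 41091 carried 1 symbol, 1801 several, 11721 none and 62 were array controls.

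A model with group means over 11 arrays was fitted in limma 3.58.1 (R 4.3.3) with eBayes, on 7 residual degrees of freedom (prior 1.12, prior SD 0.192, log2). P-values of 7 comparisons, which share arrays, were Benjamini-Hochberg adjusted over 19775 genes, and a gene was called, and said to rise or fall, at an adjusted p under 0.05. The fit was tested on simulated data. No label says that replicates were separate cultures, so p-values measure the spread of these samples only, possibly technical. The number of arrays limits the precision.

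The genes and lists were chosen with earlier results of these data known. Signals on every array are given for 5 regulators and for listed genes called at 2-fold or more in any comparison, and up to 2 genes with the smallest p per comparison could be named from each further list. The 25 alternatives covered scaling, probe set choice, dim genes, array weights, control replicate 2, a replicate block, empirical Bayes settings, stricter calls and each array left out in turn.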

Additional observations from a re-analysis of the deposited data

Results flagged for a closer look

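The effect of 17-AAG differed with and without Wee1 inhibitor II, by the test of the interaction, in 8 of the 32 genes. The log2 interactions were -2.41 for INSIG1, -1.76 for SREBF1, -1.21 for ACSS2, -1.08 for MSMO1, -0.92 for ACAT2, -0.83 for FDPS, -0.73 for LSS and -0.73 for ACACA. SREBF2 did not pass (adjusted p = 0.0822), while another of its probe sets, tested among all probe sets, gave -1.03 (adjusted p = 0.0232).

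Control replicate 2, which no comparison used, gave signals at least 4-fold above the highest of the 11 other arrays in 3 genes. TM7SF2 read 290 there, against at most 35.9 on the others. ABCA1 read 194, against at most 17.7. FADS2 read 261, against at most 50.1. These 3 genes were dim on the 11 arrays.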

How the results depend on the processing

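Across the 25 alternatives, 98 called differences of single genes gave 2441 values, of which 2092 kept direction and call, 342 kept direction and lost the call and 7 changed sign. Of 3106 values of the 126 differences that were not called, 97 became called. The sign changes were SC5D (0.12 for Wee1 inhibitor II against control, 0.0027 against 17-AAG), NPC1 (0.087 for Wee1 inhibitor II against control) and SREBF1 (-0.17 for both drugs against control) with each gene's probe sets averaged, and ELOVL6 (0.11 for both drugs and 0.28 for Wee1 inhibitor II against control) and TM7SF2 (-0.045 for both drugs against control) with control replicate 2 included. Counts of the 32 genes called also moved. With control replicate 2 included they were 12 for both drugs against 17-AAG, 1 against Wee1 inhibitor II and 8 against control, 15 for Wee1 inhibitor II against 17-AAG and 8 against control, 6 for 17-AAG against control and 1 for the interaction. Calls over all genes were then, in that order, 542, 389, 1856, 479, 1268, 480 and 119. With a change of at least 2-fold the counts of the 32 were, in that order, 6, 0, 4, 9, 2, 6 and 4 (at 0 of 32, 8 were higher and 4 lower at an unadjusted p under 0.05 for both drugs against the inhibitor). Calls over all genes were then, in the same order, 882, 734, 1982, 911, 1468, 710 and 895. An adjusted p under 0.01 gave 2 for both drugs against the inhibitor alone, 7 for Wee1 inhibitor II and 8 for 17-AAG against control, and 4 for the interaction. A fit of only the arrays compared gave 2 for both drugs against Wee1 inhibitor II, 5 for Wee1 inhibitor II and 0 for 17-AAG against control. Over all genes that fit gave 1933, 2461 and 0. The mean of probe sets gave 8 for Wee1 inhibitor II against control and 2 for both drugs against Wee1 inhibitor II. That last count of the 32 was also 3 after centring, 11 without the dimmest 40% of genes, 2 with every probe set on its own and 10 with trended and robust empirical Bayes, which gave 13 for the interaction. Over all genes these settings gave 2280, 3695, 2245 and 3699, and 3472 for the interaction. Leaving out 1 array at a time gave 17 to 21 for both drugs against 17-AAG, 2 to 6 against Wee1 inhibitor II and 10 to 15 against control, 21 to 23 for Wee1 inhibitor II against 17-AAG and 9 to 14 against control, 8 to 13 for 17-AAG against control and 6 to 9 for the interaction. Leaving out an array moved the calls over all genes too. Samples of the same number share only that number: deviations of same-numbered arrays correlated at -0.03 to 0.02 over 15 pairs, and 4 of 11 arrays matched their own number best. With the replicate block 3 of the 32 genes passed for both drugs against the inhibitor alone (2194 of all genes). The other counts stayed within 1.5 times. The cause of each move was not tested. Signals near the array medians limit MVD, ABCA1, TM7SF2 and FADS2.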
